A study of Rattus norvegicus with 9 samples.

Results

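The genes described here are the ligands and receptors of the TNF superfamily in rat liver. They were taken from the deposited gene table by name, as protein-coding genes whose symbol starts with Tnfsf or Tnfrsf, together with Tnf, Lta, Ltb, Ltbr, Fas, Faslg, Cd27, Cd70, Cd40 and Cd40lg. This gave 38 genes, 17 ligands and 21 receptors, of 32883 genes in the table, 22250 of them protein-coding. No measured value was used to choose them.

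Liver mRNA was sequenced from 9 male Sprague-Dawley rats, with 1 library per rat and 3 rats in each group. Normal rats received a normal diet and no carcinogen. DEN rats were the model of liver cancer arising from fibrosis, made by weekly intraperitoneal injections of 0.01% diethylnitrosamine (DEN), a liver carcinogen. PZH rats received the same DEN injections and also Pien-Tze-Huang (PZH), a traditional Chinese medicine preparation. DEN was thus shared by the DEN and PZH groups, and no rats given PZH without DEN were analysed here. The age of the rats, the week of collection and the PZH dose of the sequenced rats are not given in the sources used here. Groups follow the letter in the rats' titles. The treatment tag in the labels reads PZH for the DEN rats too and was set aside. Rats are named by their number, 1, 3 and 12 for normal, 13, 17 and 24 for DEN, and 27, 28 and 42 for PZH, and values below follow that order.

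Total counts ranged from 16115709 to 16412520 in normal, from 15259441 to 16641954 in DEN and from 14922973 to 27161496 in PZH, where rat 27 was the deepest. Counts are given as CPM, counts scaled to a common library size, after TMM scaling with a factor per library that sets the bulk of genes level between rats. A floor of 3 counts equalled 0.125 to 0.252 CPM. The summed level of 8 hepatocyte markers was 163000 to 176700 CPM in normal, 33570 to 78480 CPM in DEN and 131200 to 175700 CPM in PZH. Scaling by library totals instead moved the median over all genes by 0.86 on the log2 scale in DEN against normal, by -0.67 in PZH against DEN and by 0.23 in PZH against normal. Every direction below is on the TMM scale, and those that turned under library totals are named.

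TNF superfamily ligands are trimeric proteins of the cell surface, many of them released by proteases, and each binds 1 or more receptors on a neighbouring cell. Receptors with a death domain recruit adaptors that can start apoptosis, and receptors that bind TRAF adaptors turn on NF-kB and kinase cascades. In the liver the family is known for hepatocyte death, for inflammation and for the growth of bile duct and progenitor cells, and in lymphocytes for co-stimulation. Bulk liver was measured, so a change in the number of cells of a type and a change in RNA per cell cannot be told apart.

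Levels between genes were compared in FPKM, the deposited value per transcript length and library size. The family was dominated by 3 receptors in normal liver. Tnfrsf1a, the main receptor of TNF, had a mean of 69.5 FPKM ± 10.6 (SD, n = 3). Ltbr, the receptor of lymphotoxin, had 58.2 FPKM ± 19.5. Tnfrsf1b, the other TNF receptor, had 13.7 FPKM ± 4.69. The ranges of Tnfrsf1a (62.0 to 81.6 FPKM) and Ltbr (37.5 to 76.2 FPKM) overlapped, and both lay above Tnfrsf1b, which did not exceed 18.7 FPKM. These 3 receptors held 85.2% of the summed FPKM of the family in normal rats. The 3 highest members held 59.0% in DEN, where Tnfrsf21 ranked above Tnfrsf1b by its mean, and 74.7% in PZH.

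The ligand genes Tnf and Lta were near the limit of detection. Tnf had counts of 0, 0 and 1 in normal, 2, 10 and 6 in DEN and 4, 10 and 0 in PZH. Lta, the gene of lymphotoxin alpha, had at most 8 counts in any rat. The highest ligands were Tnfsf12 (TWEAK), with 7.08 FPKM ± 1.51 in normal, and Tnfsf10 (TRAIL), with 4.18 FPKM ± 0.466, and their ranges did not overlap. A mean of at least 1 FPKM was reached by 10 members in normal, 20 in DEN and 11 in PZH. No read was counted for 6 members in normal (Cd70, Tnfsf4, Tnfsf18, Tnfrsf13b, Tnfrsf17 and Tnfsf11), for Cd70 in DEN, and for Cd70 and Tnfsf4 in PZH. FPKM scales with library totals, so FPKM differences between DEN and normal include the shift given above.

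**Figure D1:**
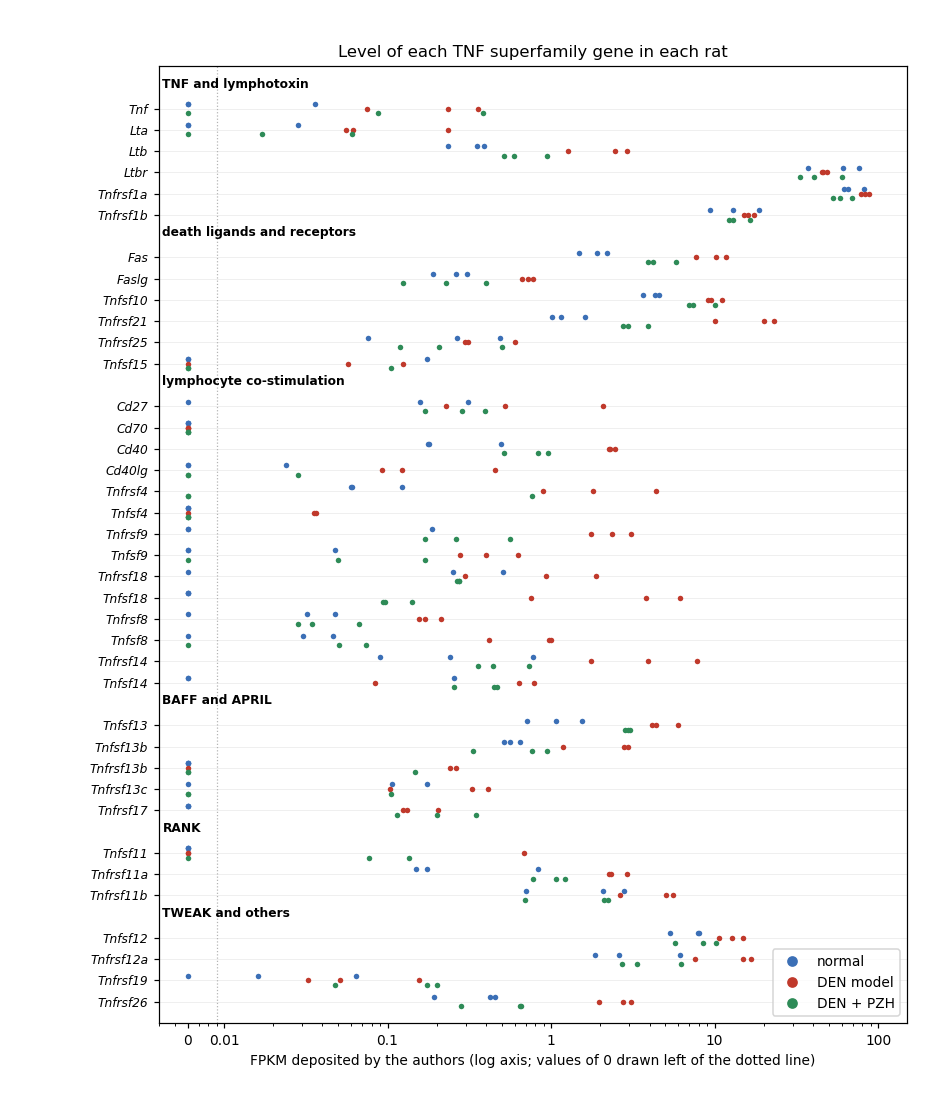
Deposited FPKM (log axis, values of 0 at the left) of the 38 members, grouped by role, with 1 point per rat in normal, DEN and PZH. Tnfrsf1a and Ltbr lie at the right in every group, and Cd70 is at 0 in all 9 rats.

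The first comparison asked how the DEN model differed from normal liver. Of the 38 members 22 had enough reads to be tested, and 15 of these were called, that is, edgeR's quasi-likelihood model gave a Benjamini-Hochberg adjusted p below 0.05, with the adjustment made across the whole table. Of the 15, 13 rose and 2 fell. Across all 14255 genes tested 45.8% were called, 25.3% higher and 20.5% lower. Under library totals 9084 of the 14255 genes were called, against 6529 under TMM. Of these called genes 89.5% were higher under library totals, against 55.3% under TMM. Under library totals 18 members were called, all higher, with Faslg, Tnfsf10, Tnfrsf11b, Tnfsf12 and Tnfrsf12a added and Ltbr and Tnfrsf1a lost. The median log2 fold change was 1.40 over the members tested and 0.03 over all genes. Groups did not overlap for 17 of the 22 members, against 58.8% of all genes. With the cut-offs of the study (log2 fold change beyond 2 in either direction, unadjusted P below 0.001) 4 members were called (Tnfrsf21, Tnfrsf4, Tnfsf18 and Tnfsf8), and 12.3% of all genes were. By kind, 5 of the 8 ligands tested rose, and of the 14 receptors tested 8 rose and 2 fell. Faslg, Tnfrsf4, Tnfrsf9, Tnfsf18 and Tnfsf8 passed the filter on low counts only through the DEN rats, so counts over tested members are not counts over the family.

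The second comparison asked how PZH rats differed from DEN rats, with DEN in both. Of 21 members tested 6 were called, all lower in PZH, and 19.1% of 14272 genes were called, 8.72% higher and 10.3% lower. Under library totals 15 members were called, and 6252 of the 14272 genes were, against 2722 under TMM. Of all called genes 8.89% were higher under library totals, against 45.7% under TMM. The median log2 fold change was -0.92 over the members tested and 0.01 over all genes. Groups did not overlap for 12 of the 21, against 40.9% of all genes, and Tnfsf18 alone passed the study's thresholds, which 2.43% of all genes did. Tnfsf18 and Tnfsf8 passed the filter only through the DEN rats. In PZH against normal, 1 of 16 members tested was called, and 5.21% of 13348 genes were, 4.07% higher and 1.15% lower. Groups did not overlap for 5 of the 16 (24.2% of all genes), and 0 members passed the study's thresholds in edgeR, which 2.32% of all genes did. An unadjusted p under 0.05 was reached by 4 members in edgeR, and DESeq2 called 4. Both comparisons with DEN use the same 3 DEN rats, and their values are given side by side for that reason. The number of members called in PZH against DEN depended on single rats, being 1 without DEN rat 13, 2 without DEN rat 24 and 3 without PZH rat 42.

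**Figure D2:**
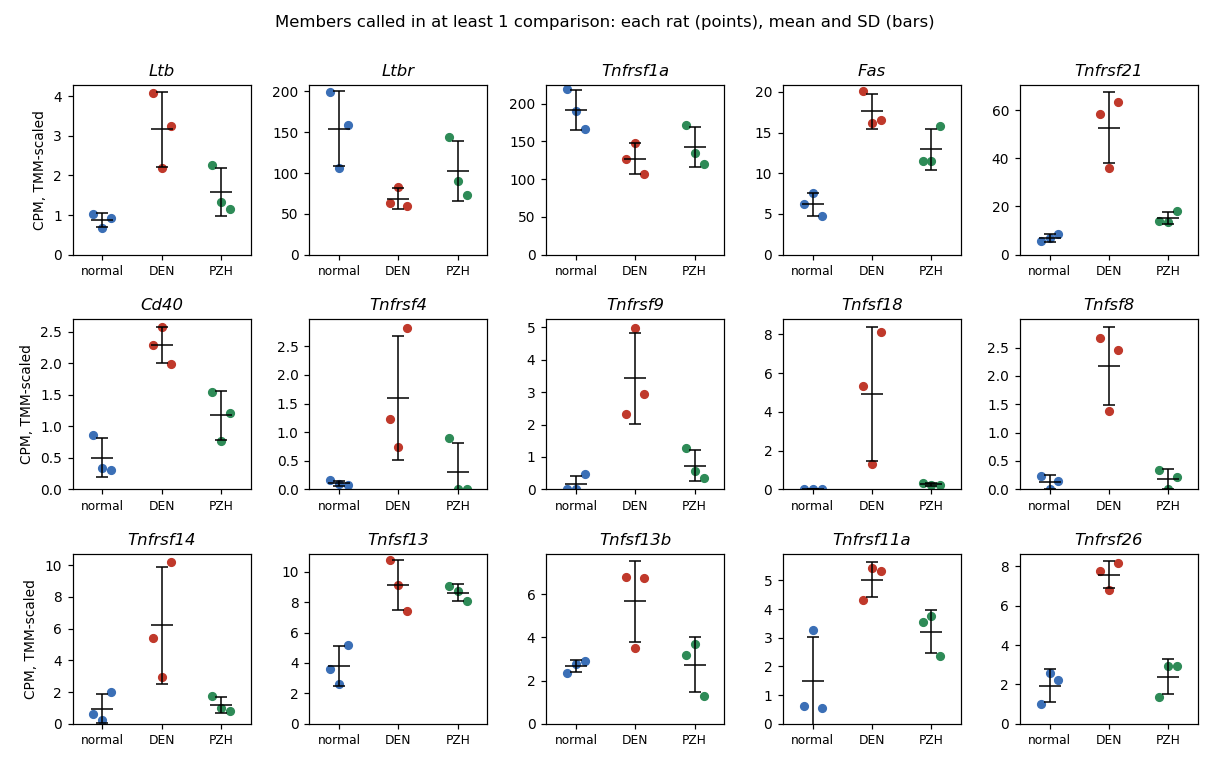
TMM-scaled CPM of the 15 members called in at least 1 comparison, with 1 point per rat and bars for the mean and SD of 3 rats; each panel has its own axis from 0. In DEN 13 members sit above and 2, Ltbr and Tnfrsf1a, below all 3 normal rats; under library totals Tnfrsf1a turned to a log2 fold change of 0.27 and was not called.

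Among TNF, lymphotoxin and their receptors, Ltb was the member that rose and the 2 abundant receptors fell. Ltb encodes lymphotoxin beta, which anchors lymphotoxin alpha to the cell surface. Ltb stood at 1.02, 0.671 and 0.915 CPM in normal, 4.07, 2.18 and 3.24 CPM in DEN, and 2.26, 1.32 and 1.14 CPM in PZH. All DEN rats were above all normal rats, and 1 PZH rat lay within the DEN range. The rise in DEN was 3.67-fold (log2 1.88 ± 0.41 SE, adjusted p = 0.00655). In PZH against DEN the log2 fold change was -0.96 (95% interval -1.91 to -0.01, adjusted p = 0.141).

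Ltbr, a receptor that can turn on the alternative NF-kB pathway, stood at 199, 106 and 159 CPM in normal, 63.4, 82.9 and 60.1 CPM in DEN, and 144, 90.2 and 73.5 CPM in PZH. Each DEN rat was below each normal rat, and the PZH rats spread over both ranges. It fell by 1.15 on the log2 scale in DEN (SE 0.26, adjusted p = 0.00693), and under library totals the value was -0.32 with an adjusted p of 0.294. Tnfrsf1a stood at 219, 190 and 166 CPM in normal, 127, 147 and 107 CPM in DEN, and 171, 135 and 120 CPM in PZH. Its groups in DEN and normal did not overlap, and it fell by 0.57 on the log2 scale (SE 0.21, adjusted p = 0.0488), a direction that turned to 0.27 (adjusted p = 0.263) under library totals. This call was also lost on leaving out any 1 of normal rats 1, 3 and 12 and DEN rats 13 and 24, with adjusted p from 0.0618 to 0.186. Tnfrsf1b had a log2 fold change of -0.59 in DEN (adjusted p = 0.0631), which turned to 0.25 under library totals.

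Among death ligands and receptors, Fas and Tnfrsf21 rose in DEN. Tnfrsf21 encodes death receptor DR6, which carries a death domain. Tnfrsf21 stood at 5.54, 6.88 and 8.77 CPM in normal, 58.6, 35.8 and 63.6 CPM in DEN, and 13.8, 13.8 and 18.2 CPM in PZH. The 3 groups did not overlap, with PZH between the others. It rose 7.53-fold in DEN (log2 2.91 ± 0.28 SE, adjusted p = 0.000219), fell by 1.77 on the log2 scale from DEN to PZH (SE 0.25, adjusted p = 0.00919), and was higher in PZH than in normal by 1.11 (SE 0.26, adjusted p = 0.0461). It was the only member called in all 3 comparisons. The call against normal in PZH was lost without any 1 of normal rats 1, 3 and 12 and PZH rats 28 and 42, with adjusted p from 0.0746 to 0.167.

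Fas, the receptor of Fas ligand and a classic trigger of hepatocyte apoptosis, stood at 6.17, 7.64 and 4.73 CPM in normal, 20.1, 16.2 and 16.5 CPM in DEN, and 11.5, 11.5 and 15.8 CPM in PZH. Again the groups did not overlap and PZH lay between. The rise in DEN was 2.89-fold (log2 1.53 ± 0.24 SE, adjusted p = 0.00143). PZH differed from DEN by -0.43 (95% interval -0.90 to 0.05, adjusted p = 0.183) and from normal by 1.06 (adjusted p = 0.068), and neither was called.

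The ligands of the death receptors did not pass the test. Faslg, the Fas ligand of cytotoxic lymphocytes, had counts of 8, 5 and 7 in normal, 20, 18 and 18 in DEN and 10, 10 and 3 in PZH, with a log2 fold change of 0.66 in DEN (95% interval -0.38 to 1.71, adjusted p = 0.265). Tnfsf10, which encodes the apoptosis ligand TRAIL, stood at 20.8, 19.3 and 22.1 CPM in normal, 28.8, 29.0 and 23.2 CPM in DEN, and 30.9, 30.7 and 40.9 CPM in PZH. Every DEN rat was above every normal rat and every PZH rat above every DEN rat, yet the log2 fold changes of 0.40 (DEN against normal, adjusted p = 0.0864), 0.36 (PZH against DEN, adjusted p = 0.209) and 0.73 (PZH against normal, adjusted p = 0.0769) were not called. Under library totals its value in PZH against DEN turned negative. Tnfrsf25 and Tnfsf15, the receptor DR3 and its ligand TL1A, were not tested, with at most 22 and 3 counts in a rat.

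Promoters of the members were searched for the motifs of NF-kB and AP-1, the factors that receptors of this family turn on. RefSeq sequences on build GRCr8, from 250 bases before to 50 bases after the start of each gene, were matched for 29 of the 38 members. On both strands, the NF-kB consensus was found in 4.18% of 33469 promoters and in 5 of the 29 member promoters, and the AP-1 motif TGANTCA in 7.33% of all and in 3 of the 29. Of 12 promoters of called members 1 held each motif. The 2 stretches that follow are those matches with their flanks, the match in capitals, the first on the minus strand at chr20:3634055-3634119 with its first motif base at -25 from the start, the second on the plus strand at chr1:241211910-241211996 with its first motif base at -205. A match describes letters and not a bound site.
Ltb: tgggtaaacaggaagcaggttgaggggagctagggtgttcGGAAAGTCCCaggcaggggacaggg
Fas: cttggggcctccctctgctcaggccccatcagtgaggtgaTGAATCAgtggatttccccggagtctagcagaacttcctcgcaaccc

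The 14 members of lymphocyte co-stimulation held the largest fitted fold changes in DEN against normal and in PZH against DEN. In DEN 6 of the 7 tested rose and in PZH against DEN 4 of the 6 tested fell, where 25.3% of all genes were called higher and 10.3% lower. Of the 6 that rose, Tnfrsf4, Tnfrsf9, Tnfsf18 and Tnfsf8 passed the filter only through the DEN rats. So did Tnfsf18 and Tnfsf8 among the 4 that fell. These counts and the ranking by fold change are thus partly set by the filter. Of the members that passed through both groups in DEN against normal, the death receptor gene Tnfrsf21 had the largest log2 fold change, 2.91. Tnfsf18, the ligand of GITR, had counts of 0, 0 and 0 in normal, 126, 26 and 196 in DEN and 8, 3 and 3 in PZH. It was read in every DEN rat and in no normal rat, and the DEN rats differed among themselves. Against a floor of 3 counts in each normal library it was at least 20.7-fold higher in DEN, and edgeR's test gave an adjusted p of 0.00287. It was 18.0-fold lower in PZH than in DEN (log2 -4.17 ± 0.74 SE, adjusted p = 0.0137), and without DEN rat 13 the adjusted p was 0.0528 with a log2 value of -4.12. Its receptor gene Tnfrsf18 had counts of 10, 0 and 5 in normal, 18, 6 and 35 in DEN and 9, 5 and 5 in PZH, and its log2 fold change of 1.12 in DEN was not called (95% interval -0.95 to 3.19, adjusted p = 0.343).

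Tnfsf8, the ligand of CD30, had counts of 3, 0 and 2 in normal, 63, 28 and 59 in DEN and 8, 0 and 3 in PZH. The DEN rats stood clear of the other 6 rats. The ratio of summed counts between DEN and normal was 16.7 (exact 95% counting interval 7.01 to 52.3), and edgeR's test gave an adjusted p of 0.00267. In PZH Tnfsf8 fell by 3.37 on the log2 scale from DEN (SE 0.73, adjusted p = 0.0204). That fall was not called without DEN rat 13, DEN rat 24 or PZH rat 42, with adjusted p from 0.0621 to 0.08. Tnfrsf8, the CD30 receptor, was not tested and had counts of 2, 3 and 0, then 13, 10 and 10, then 3, 4 and 2.

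Tnfrsf9 and Tnfrsf4 encode the receptors CD137 and OX40, which appear on activated T cells. Tnfrsf9 stood at 0, 0 and 0.458 CPM in normal, 2.33, 4.998 and 2.95 CPM in DEN, and 1.28, 0.557 and 0.356 CPM in PZH. The DEN rats were above all others. It rose by 4.40 on the log2 scale in DEN (SE 0.92, adjusted p = 0.00522) and fell by 2.13 from DEN to PZH (SE 0.55, adjusted p = 0.0326), a call lost on leaving out any 1 of DEN rats 13, 17 and 24 and PZH rats 28 and 42 (adjusted p 0.0675 to 0.0997). Tnfrsf4 had counts of 2, 1 and 1 in normal, 29, 15 and 68 in DEN and 21, 0 and 0 in PZH. All PZH reads came from rat 27, the deepest library, whose 0.896 CPM lay within the DEN range. The ratio of summed counts in DEN against normal was 15.6 (exact 95% counting interval 5.93 to 58.3), and edgeR's test gave an adjusted p of 0.00437. PZH against DEN was not called (log2 -2.16, 95% interval -4.69 to 0.36, adjusted p = 0.202). Their ligand genes Tnfsf9 and Tnfsf4 were not tested, with at most 13 and 1 counts in a rat.

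Cd40, the receptor through which T cells license antigen-presenting cells, stood at 0.859, 0.336 and 0.305 CPM in normal, 2.29, 2.57 and 1.99 CPM in DEN, and 1.54, 0.765 and 1.21 CPM in PZH. DEN rats were above the other 6, and PZH overlapped normal. It rose 4.59-fold in DEN (log2 2.20 ± 0.50 SE, adjusted p = 0.0074), and PZH differed from DEN by -0.92 (95% interval -1.82 to -0.02, adjusted p = 0.136). Tnfrsf14, the receptor HVEM, stood at 0.625, 0.252 and 1.98 CPM in normal, 5.43, 2.97 and 10.2 CPM in DEN, and 1.75, 0.974 and 0.783 CPM in PZH. The DEN rats again did not overlap the others, and they differed more than 3-fold among themselves. The log2 fold changes of Tnfrsf14 were 2.70 in DEN against normal (SE 0.71, adjusted p = 0.014) and -2.35 in PZH against DEN (SE 0.53, adjusted p = 0.0235). The first was lost without normal rat 1 (adjusted p = 0.0594) and the second without DEN rat 13, DEN rat 24, PZH rat 28 or PZH rat 42 (adjusted p 0.0698 to 0.0777).

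The partner genes of these receptors had few reads. Cd40lg, the T cell ligand of CD40, had counts of 1, 0 and 0 in normal, 5, 4 and 18 in DEN and 2, 0 and 0 in PZH. Tnfsf14, the HVEM ligand LIGHT, did not exceed 9 counts. Cd27, the receptor of CD70, had counts of 4, 0 and 8, then 13, 6 and 50, then 17, 7 and 4, while its ligand gene Cd70 had none. None of these 4 was tested.

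Summed markers of some cell types differed between the groups, and those of other cell types overlapped. The summed level of the 9 T cell markers found was 24.1 to 46.9 CPM in normal, 80.9 to 132 CPM in DEN and 38.4 to 47.6 CPM in PZH. All 7 tested rose in DEN, where 25.3% of all genes were called higher. In PZH against DEN 1 of the 7 tested, Cd4, fell (adjusted p = 0.00919), where 10.3% of all genes were called lower. Most of the summed T cell level was Cd4, which rat macrophages also express. Cd3e, a subunit of the T cell receptor complex, had 4.16, 2.13 and 14.9 CPM in the DEN rats. Rat 24, the highest for Cd3e, was also the highest DEN rat for Tnfrsf4, Tnfrsf14, Tnfsf18, Tnfrsf21 and Tnfrsf26. It was the highest for the cholangiocyte and stellate cell sums as well and the lowest for hepatocyte markers. Cd40, Tnfrsf11a and Tnfrsf9 were highest in DEN rat 17, which had the lowest T cell sum (80.9 CPM). The 7 cholangiocyte markers summed to 13.04 to 20.8 CPM in normal, 209 to 751 CPM in DEN and 76.3 to 90.2 CPM in PZH, the 9 stellate cell markers to 202 to 310 CPM, 1098 to 3270 CPM and 644 to 772 CPM, and the 7 neutrophil markers to 2.35 to 2.75 CPM, 17.8 to 38.5 CPM and 5.55 to 5.70 CPM. Of the 7, 5 were tested, and all 5 were called higher in DEN and lower in PZH against DEN, where 25.3% and 10.3% of all genes were. Elane and Mpo were at 0 in all normal rats and were not tested in DEN against normal. The 6 dendritic cell markers summed to 13.1 to 19.4 CPM in normal, 31.7 to 40.7 CPM in DEN and 26.0 to 40.6 CPM in PZH, and 1 of them, Itgax, was called higher in DEN (12.6-fold, adjusted p = 0.000692). The 9 macrophage markers spanned 607 to 1009 CPM in normal, 676 to 952 CPM in DEN and 333 to 713 CPM in PZH, and single markers went opposite ways. Lyz2 rose 11.9-fold in DEN (adjusted p = 0.000323), while Vsig4, Clec4f, Cd14 and Marco, several of them known from Kupffer cells, fell on the TMM scale, where under library totals Marco alone was called and Cd14 turned to a log2 value of 0.06. In PZH against DEN Csf1r, Adgre1, Lyz2 and Cd68 fell. The 8 NK and cytotoxic markers spanned 11.4 to 16.0 CPM in normal and 10.6 to 16.1 CPM in DEN. The 7 endothelial markers found summed to 369 to 455 CPM in normal, 238 to 454 CPM in DEN and 323 to 448 CPM in PZH. Of these 7, 2 were called higher and 3 lower in DEN, where 25.3% of all genes were called higher and 20.5% lower. The part of these markers in the members' changes was not tested.

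DEN rat 17 had the lowest values of T cell, cholangiocyte, stellate and neutrophil markers in its group and the highest of hepatocyte markers. Of the 13 members that rose in DEN it was the lowest DEN rat for 9, including Tnfrsf21, Tnfsf18 and Tnfrsf14, and the highest for Cd40, Tnfrsf11a and Tnfrsf9. Without this rat 14 members were called in DEN against normal and 5 in PZH against DEN. In PZH, rat 27 was the highest for 8 of the 13.

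The BAFF and APRIL ligands, which sustain B cells and plasma cells, both rose in DEN. Tnfsf13, the gene of APRIL, stood at 3.59, 2.60 and 5.19 CPM in normal, 10.7, 9.16 and 7.43 CPM in DEN, and 9.08, 8.76 and 8.04 CPM in PZH. Normal rats lay below the other 6, and DEN and PZH overlapped. It rose 2.42-fold in DEN (log2 1.28 ± 0.31 SE, adjusted p = 0.0102). In PZH it was 1.19 above normal on the log2 scale (adjusted p = 0.0571, not called), and it differed from DEN by -0.05 (95% interval -0.56 to 0.46, adjusted p = 0.892).

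Tnfsf13b, the gene of BAFF, stood at 2.34, 2.77 and 2.90 CPM in normal, 6.79, 3.51 and 6.72 CPM in DEN, and 3.20, 3.69 and 1.28 CPM in PZH. DEN and normal did not overlap, though rat 17 was close to the normal rats. The rise in DEN was 2.15-fold (log2 1.10 ± 0.35 SE, adjusted p = 0.0289), and it was lost without any 1 of normal rats 1, 3 and 12 and DEN rats 13 and 24 (adjusted p 0.0541 to 0.113). Their receptor genes Tnfrsf13b (TACI), Tnfrsf13c (the BAFF receptor) and Tnfrsf17 (BCMA) were not tested and reached at most 3, 11 and 5 counts. The 6 B cell markers found summed to 10.7 to 19.6 CPM in normal and 15.7 to 17.2 CPM in DEN, and the 6 plasma cell markers to 270 to 309 CPM in normal, 199 to 272 CPM in DEN and 158 to 223 CPM in PZH. Single plasma cell markers differed from that sum, as Pou2af1 rose 7.17-fold (adjusted p = 0.0057) and Prdm1 2.45-fold (adjusted p = 0.0301) in DEN, and Pou2af1 fell 6.03-fold from DEN to PZH (adjusted p = 0.0265). In DEN against normal Sdc1 alone of these markers had a negative log2 fold change (-0.41). Jchain (0.94), Mzb1 (0.68) and Derl3 (0.04) had positive ones, and none of these markers was called. The sum therefore does not stand for each marker. The part of these markers in the rise of both ligands was not tested.

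Of the RANK genes, known for bone resorption and lymph node formation, Tnfrsf11a rose. Tnfrsf11a encodes RANK itself and stood at 0.625, 3.27 and 0.534 CPM in normal, 4.33, 5.44 and 5.31 CPM in DEN, and 3.54, 3.76 and 2.35 CPM in PZH. Normal rat 3 stood apart from the other normal rats and within the PZH range. The log2 fold change in DEN was 1.79 (SE 0.63, adjusted p = 0.0466), and the call was lost without normal rat 1, normal rat 12 or any 1 of the DEN rats (adjusted p 0.0773 to 0.138). Tnfrsf11b, the gene of the decoy receptor osteoprotegerin, stood at 2.58, 8.22 and 10.2 CPM in normal and 9.89, 6.29 and 10.3 CPM in DEN, with a log2 fold change of 0.35 (95% interval -0.69 to 1.39, adjusted p = 0.56). Tnfsf11, the ligand RANKL, had 10 counts in DEN rat 24 and at most 2 in any other rat.

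Among the remaining members, Tnfrsf26 rose in DEN and Tnfsf12 was not called. Tnfrsf26 stood at 1.02, 2.60 and 2.21 CPM in normal, 7.77, 6.83 and 8.18 CPM in DEN, and 1.37, 2.92 and 2.92 CPM in PZH. The DEN rats were well above the other 6, which overlapped. It rose 3.94-fold in DEN (log2 1.98 ± 0.37 SE, adjusted p = 0.00326) and fell by 1.66 on the log2 scale from DEN to PZH (SE 0.34, adjusted p = 0.0175), the latter lost without DEN rat 13 or 24 (adjusted p 0.0602 to 0.071).

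Tnfsf12 encodes TWEAK, which acts on progenitor cells through the receptor Fn14, the product of Tnfrsf12a. Tnfsf12 stood at 15.5, 11.2 and 15.3 CPM in normal, 15.4, 13.6 and 12.5 CPM in DEN, and 15.1, 16.97 and 9.33 CPM in PZH. The groups overlapped, and the log2 fold change in DEN was 0.00 (95% interval -0.46 to 0.46, adjusted p = 0.996), while under library totals it was 0.86 (adjusted p = 0.0166). Tnfrsf12a stood at 7.42, 2.43 and 3.13 CPM in normal, 9.68, 6.04 and 10.2 CPM in DEN, and 6.95, 3.48 and 2.78 CPM in PZH. Normal rat 1 overlapped the DEN range, and the log2 fold change of 1.02 (95% interval 0.07 to 1.98) was not called (adjusted p = 0.0762). Tnfrsf19, the receptor TROY, was not tested and had at most 12 counts.

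**Figure D3:**
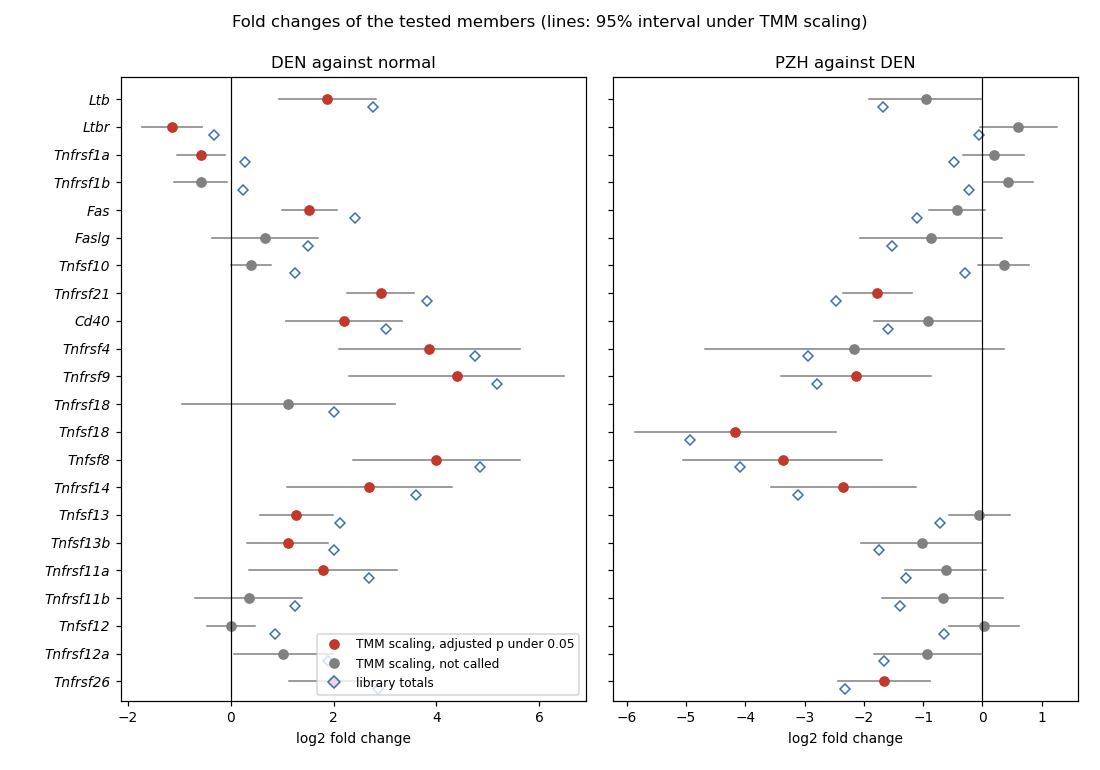
Log2 fold changes of the tested members in DEN against normal and in PZH against DEN, with 95% intervals under TMM scaling (red where called) and the value under library totals (diamonds); Tnfsf18 is left out of the first panel because its normal rats had no reads. Library totals move all values to the right in the first panel and to the left in the second, and Tnfrsf1a crosses 0 in both.

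Ratios of reads of 2 members within a library do not depend on scaling. Ratios were computed for 8 pairs, chosen after values had been seen, and with 3 rats against 3 an exact two-sided permutation test cannot go below p = 0.1. In DEN against normal the groups did not overlap for 5 of the 8 ratios (exact permutation p = 0.1, adjusted over the 8 ratios 0.16). They overlapped for Tnfrsf1b over Tnfrsf1a (exact p = 1), Ltbr over Tnfrsf1a (exact p = 0.3) and Tnfsf13b over Tnfsf13 (exact p = 0.5). The 3 ratios given next are from the 5. Fas reads per Tnfrsf1a read were 0.0281, 0.0402 and 0.0285 in normal, 0.158, 0.11 and 0.155 in DEN, and 0.0673, 0.0851 and 0.132 in PZH. The ratio was thus higher in every DEN and PZH rat than in any normal rat (exact permutation p = 0.1 for each, the smallest possible). Tnfrsf21 reads per Tnfrsf1a read were 0.0253, 0.0362 and 0.0529 in normal, 0.462, 0.243 and 0.596 in DEN, and 0.0805, 0.102 and 0.152 in PZH. All 3 groups were apart. Tnfsf13 reads per Tnfsf12 read were 0.232, 0.231 and 0.340 in normal, 0.697, 0.675 and 0.595 in DEN, and 0.6, 0.516 and 0.863 in PZH. Here normal rats were below the other 6, while PZH and DEN overlapped (exact permutation p = 1).

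**Figure D4:**
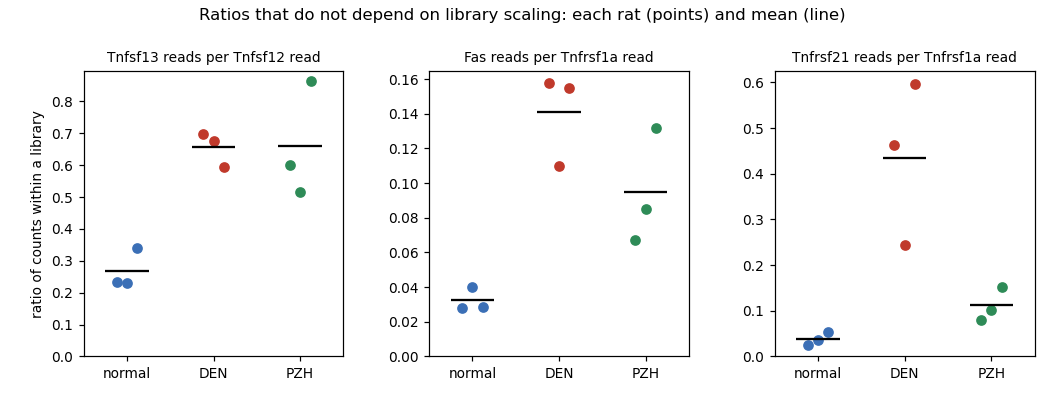
For 3 of the 8 ratios, counts of 1 member divided by counts of another within a library, namely Tnfsf13 over Tnfsf12, Fas over Tnfrsf1a and Tnfrsf21 over Tnfrsf1a, with a point per rat and a line at the group mean. Normal rats are lowest in all 3 panels, and PZH lies between normal and DEN without overlap only for Tnfrsf21.

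In the authors' coordinates, whose genome build is not given in the sources used here, 20 of the 38 members lay in 8 clusters with gaps of at most 500 kb. Tnfsf13 and Tnfsf12 on chromosome 10 were 827 bp apart, so reads running from one gene into the other could be assigned to either. Tnfsf13 rose in DEN and Tnfsf12 was not called. Lta, Tnf and Ltb lay within a stretch of chromosome 20 with gaps of 1151 and 2887 bp, and of these Ltb alone had enough reads to be tested. Ltbr and Tnfrsf1a, the 2 members that fell on the TMM scale, were neighbours on chromosome 4 with a gap of 35727 bp. Tnfsf18 lay 84954 bp from Tnfsf4 on chromosome 13, which had at most 1 count in a rat. Tnfrsf4 and Tnfrsf18 on chromosome 5 were 9879 bp apart.

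Signalling genes downstream of the receptors were read from 3 lists, of 37 adaptors and death genes, 17 NF-kB and feedback genes and 8 genes of ligand shedding. In DEN against normal 61 of the 62 were tested and 27 were called, 20 higher and 7 lower, a share of 44.3% against 45.8% of all genes. Called genes numbered 10 of 37 adaptors, 11 of 17 NF-kB genes and 6 of 7 shedding genes tested. Traip, an E3 ubiquitin ligase named for its binding to TRAF proteins and also known for DNA repair, was the gene of the lists past the study's thresholds, with counts of 1, 0 and 0 in normal, 19, 20 and 42 in DEN and 3, 2 and 0 in PZH. It passed the filter only through the DEN rats. The ratio of its summed counts in DEN against normal was 45.2 (exact 95% counting interval 7.88 to 1810), and edgeR's test gave an adjusted p of 0.00266. Other genes of the lists are named after their values were seen.

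Among adaptors, Ripk3, the kinase of necroptosis, rose by 1.68 on the log2 scale (adjusted p = 0.0127, and 0.0526 without normal rat 1), and Cflar, the inhibitor of caspase 8, fell by 1.31 (adjusted p = 0.00292, and 0.149 under library totals). Among NF-kB genes, Relb, the partner of the alternative pathway, rose by 1.25 and Nfkb1, the precursor of p50, by 0.86. Nfkbiz, an atypical member of the NF-kB inhibitor family, fell by 1.92 (adjusted p = 0.000999). The call of Relb was lost without DEN rat 13 (adjusted p = 0.061). Among shedding genes, Adam17, the protease that releases TNF and its receptors, rose by 0.93 (SE 0.16, adjusted p = 0.00227), its partners Rhbdf1 and Rhbdf2 by 1.38 and 1.32, and Timp3, its inhibitor, by 1.52 (adjusted p = 0.000645). Of the 7 genes that fell, Traf4 and Bcl3 turned to log2 values of 0.11 and 0.14 under library totals. There 48 genes of the lists were called, 47 of them higher, and 9084 of all 14255 genes tested were called.

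In PZH against DEN 10 of 61 signalling genes were called, 1 higher and 9 lower, a share of 16.4% against 19.1% of all genes. Cflar was the gene that rose, by 0.90 on the log2 scale (adjusted p = 0.0209, and 0.384 under library totals). Traip fell (adjusted p = 0.0192 by edgeR's test), with a ratio of summed counts in DEN over PZH of 12.4 (exact 95% counting interval 5.09 to 39.2). On the log2 scale Ripk3 fell by 1.64 (adjusted p = 0.0284), Vcam1, an adhesion molecule, by 1.53 (adjusted p = 0.0101) and Adam17 by 0.73 (adjusted p = 0.0245). Vcam1 was among 3 of the 17 NF-kB and feedback genes that were called. Others of that list were not called, such as Icam1 (0.03, adjusted p = 0.941), Tnfaip3 (-0.39, adjusted p = 0.391) and Bcl2a1 (-0.76, adjusted p = 0.113). The number of signalling genes called was 1 without DEN rat 13, 1 without DEN rat 24, 2 without PZH rat 28 and 6 without PZH rat 42. Of the called genes named here only Vcam1 was still called without each single rat. In PZH against normal 1 of 60 signalling genes tested was called, a share of 1.67% against 5.21% of all genes. This was Timp3, at a log2 fold change of 0.98 (adjusted p = 0.0376). Its call was lost without any 1 of normal rats 1, 3 and 12 and PZH rats 28 and 42 (adjusted p 0.0678 to 0.186).

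**Figure D5:**
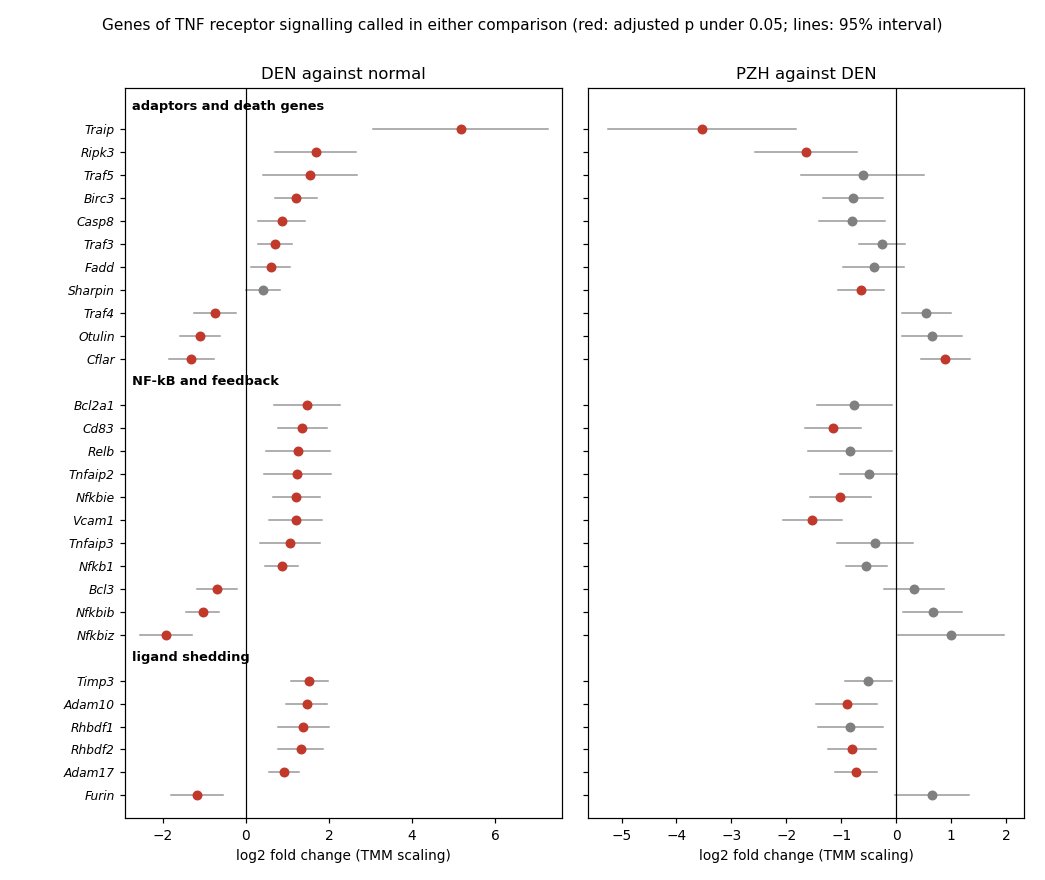
Log2 fold changes with 95% intervals, on the TMM scale, of the 28 signalling genes called in DEN against normal or in PZH against DEN, by list, with called values in red. Traip lies farthest from 0 in both panels, a fitted value over 1 read in normal and 5 in PZH, and Cflar is the called gene below 0 in the first panel and above 0 in the second; under library totals Traf4 and Bcl3 turn positive in the first.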

How the data were processed

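Liver mRNA of 9 rats was sequenced, and the authors deposited 1 gene table. Its counts are whole reads per gene and rat that the authors did not normalize, and its FPKM values are the same reads as the authors scaled them by library size and transcript length. The submitters' processing notes name fastp, HISAT2 2.1.0, StringTie 1.3.3b and edgeR 3.30.3 without roles, and the genome build is not given in the sources used here. Columns of the authors' own comparisons (group mean FPKM, fold changes, P and Q values, direction) were not used.

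Counts were tested in R 4.3.3 with edgeR 4.0.16 on the 6 rats of each of 3 comparisons. Genes were kept with filterByExpr, scaled by TMM and tested with the quasi-likelihood test without covariates, after the fit had been tested on simulated data. The simulated data changed a small part of the genes, equally in both directions, so they do not bear on the choice of scaling. A gene was called at a Benjamini-Hochberg adjusted p under 0.05 over all genes tested, and "rose" and "fell" are used for called genes. CPM per rat uses TMM factors from all 9 rats. Alternatives were DESeq2 1.42.0, library totals, upper-quartile factors, no filter, at least 10 counts in every rat, 1 fit over 3 groups, the study's thresholds, and leaving out each rat. Intervals on count ratios and floors cover counting error only. Whether strand was used in counting is not given in the sources used here.

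Members called in any comparison are named with every rat's value. Of the signalling lists Traip is named because it passed the study's thresholds, and the other genes were picked after their values were seen. The members, lists and tests were chosen with earlier results of these data known. Promoter sequences are from RefSeq (GRCr8).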

Additional observations from a re-analysis of the deposited data

How the results depend on the processing

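Among members in DEN against normal 15 were called, and this became 4 at the study's thresholds and 7 with at least 10 counts in every rat, and 12 to 14 on leaving out 1 rat. In PZH against DEN the 6 became 1 at the study's thresholds, 15 under library totals and 3 with at least 10 counts in every rat, and 1 to 8 on leaving out 1 rat (1 without DEN rat 13, 2 without DEN rat 24, 3 without PZH rat 42). In PZH against normal the 1 became 0 at the study's thresholds and with at least 10 counts in every rat, 2 with upper-quartile factors, and 4 with DESeq2, library totals or 3 groups in 1 fit, and 0 to 3 on leaving out 1 rat (0 without normal rat 1 or 12 or PZH rat 28 or 42, 3 without PZH rat 27). edgeR gave 4 members at an unadjusted p under 0.05 there. Signalling genes called in DEN against normal went from 27 to 1 at the study's thresholds and 48 under library totals, and to 19 to 27 on leaving out 1 rat. In PZH against DEN they went from 10 to 0 at the study's thresholds (24 at an unadjusted p under 0.05 by edgeR, 14 called by DESeq2) and 36 under library totals, and to 1 to 14 on leaving out 1 rat (1 without DEN rat 13 or 24, 2 without PZH rat 28, 6 without PZH rat 42). In PZH against normal they went from 1 to 0 at the study's thresholds and 2 under library totals, and to 0 to 1 on leaving out 1 rat (0 without normal rat 1 or 12 or PZH rat 28 or 42). Under library totals 3 calls of DEN against normal turned, Tnfrsf1a to 0.27, Traf4 to 0.11 and Bcl3 to 0.14, and none passed the test. Over all alternatives the 22 member calls were kept 214 times and lost 60 times, 36 of these on leaving out a rat and 17 at the study's thresholds. Of the 17 member calls lost at the study's thresholds, 3 missed the fold alone, 6 the P alone and 8 both. The stricter filter tests fewer genes, a left-out rat leaves fewer samples, and library totals shift all genes. Of the member calls still tested under the stricter filter 9 were kept and 2 were lost. Those lost were Tnfrsf1a in DEN against normal and Tnfrsf21 in PZH against normal. Causes of the lost calls were not tested. Over all genes the main fit called 6529 in DEN against normal, 2722 in PZH against DEN and 696 in PZH against normal. Library totals called 9084, 6252 and 909, and DESeq2 called 6842, 3781 and 1320. Of all genes called in PZH against normal 78% were higher under TMM, 67.8% with DESeq2 and 90% under library totals. No paired analysis was possible because the groups share no replicate numbers, each number being that of 1 rat. At the depth of these libraries 16 members had too few reads to be tested in any comparison, among them Tnf and 8 other ligands.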
